A study of Mus musculus with 2 samples.

Results

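The platelet-derived growth factor (PDGF) genes are 6 of the 31053 genes counted in single cells of injured mouse spinal cord. They were taken by symbol, the ligands Pdgfa, Pdgfb, Pdgfc and Pdgfd and the receptors Pdgfra and Pdgfrb, and all 6 were found. Cord was sampled 5 days after injury in 2 libraries, one given an HDAC3 inhibitor and the other vehicle. HDAC3 is a histone deacetylase, an enzyme that removes acetyl groups from histones and other proteins. The labels give no compound, dose, strain, age, sex or kind of injury, and do not say how many animals made up each library. With 1 library per group there is no replicate check, so libraries are compared and not treatments, and no test was made.

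PDGF ligands are secreted dimers that bind and pair receptor tyrosine kinases on neighbouring cells. The A and C chains act mainly on the alpha receptor, the D chain mainly on the beta receptor, and the B chain on both, and the C and D chains are secreted in a latent form that proteases must cut. In the central nervous system the alpha receptor is known for driving growth of oligodendrocyte progenitors, and the beta receptor for drawing pericytes, the cells that wrap capillaries, to endothelium. Fibroblasts can carry both receptors.

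After filtering, 2954 cells of the HDAC3 inhibitor library and 2164 of the vehicle library were kept, with medians of 9702 and 10245 unique molecular identifiers (UMIs, counted transcripts) per cell, and 4 barcodes were found in both. Cells were clustered without the 6 PDGF genes and named from marker genes, as "X-like", in 15 classes, and every marker of a class, 8 to 12 of them, reached 20 CPM there. CPM is the usual counts-per-million scale, the UMIs of a gene over those of all genes in the cells of a class. Intervals are 95% and cover counting error only, by the exact Poisson method for CPM, the exact conditional binomial method for ratios and the Clopper-Pearson method for shares. Beside a count of 0, the limit given is instead that of 3 counts over the total. Ratios are HDAC3 inhibitor over vehicle unless cell classes are compared. Free RNA can put UMIs into any droplet, so shares of cells are read against a class that should lack the gene.

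Each PDGF gene had its own distribution over the cell classes. Pdgfa had 6116 UMIs and reached 20 CPM in 10 of 15 classes, Pdgfb (4934 UMIs) in 4 and Pdgfrb (1600 UMIs) in 4. Pdgfd (550 UMIs) did so in 3 classes, and Pdgfra (656 UMIs) and Pdgfc (158 UMIs) in 2 each. Pdgfa was spread over neural, vascular and myeloid classes. With both libraries together, Pdgfra had over 300 CPM in each of its leading classes and under 4 CPM in every other class.

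**Figure D1:**
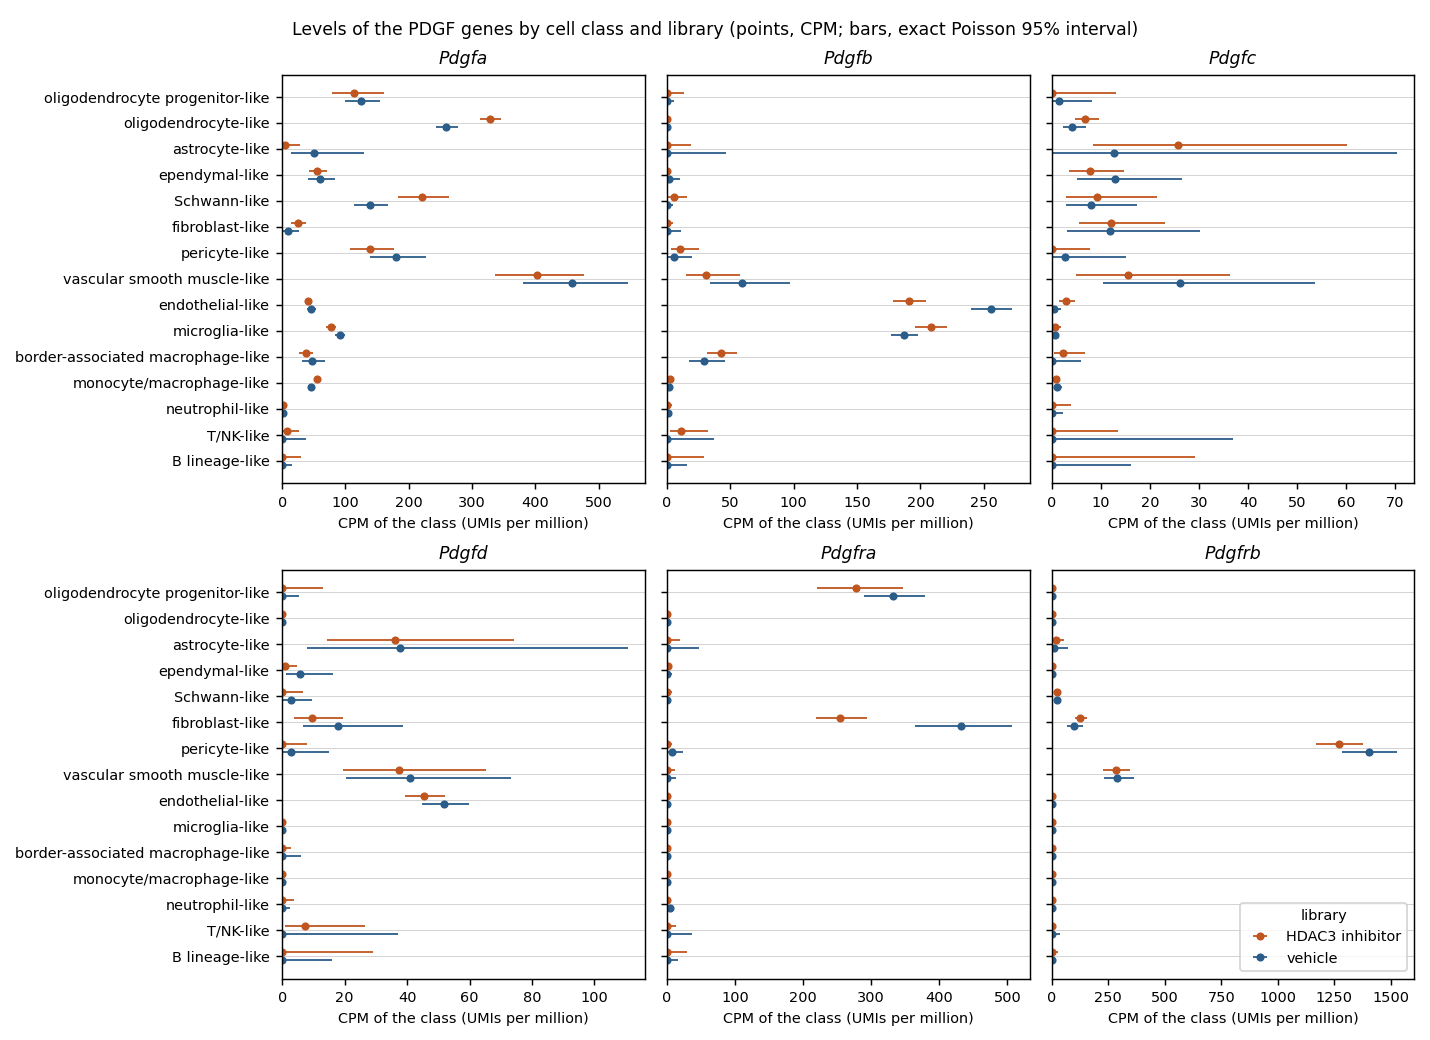
Levels of the 6 PDGF genes (x axis, CPM, from 0) in 15 cell classes (y axis), with 1 point per library and exact Poisson 95% intervals as bars. Pdgfa spreads over glial, vascular and myeloid classes, Pdgfb is high in endothelial-like and microglia-like cells, Pdgfra in progenitor-like and fibroblast-like cells, and Pdgfrb in pericyte-like cells.

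Among the ligands, Pdgfa, the A chain (ENSMUSG00000025856, chr5:138976014-138997370, minus strand, in GENCODE M21 on mm10), was highest in vascular smooth muscle-like and oligodendrocyte-like cells. Vascular smooth muscle-like cells had 402 CPM (336 to 478) with HDAC3 inhibitor and 458 CPM (380.4 to 546) with vehicle. Oligodendrocyte-like cells had 329 CPM (313 to 346) with HDAC3 inhibitor and 259.6 CPM (243 to 277) with vehicle. Over both libraries the smooth muscle level was 1.42 (1.24 to 1.62) times that of oligodendrocyte-like cells, and this order held in each library. Schwann-like cells at 173 CPM, pericyte-like cells at 157 CPM and oligodendrocyte progenitor-like cells at 122 CPM came next, and the steps between these neighbours lay within counting error. Microglia-like cells had 85.0 CPM, ependymal-like cells 56.5 CPM and monocyte/macrophage-like cells 51.8 CPM. A UMI of Pdgfa was found in 98.5% of 65 smooth muscle-like cells and 84.2% of 602 oligodendrocyte-like cells, against 1.08% of 369 neutrophil-like cells. At a common depth of 2000 UMIs per cell these shares were 66.7%, 39.1% and 0.877%. The median depths of the 3 classes were 9090, 12096 and 4858 UMIs per cell.

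Because oligodendrocyte-like cells were many, they held 40.9% (39.7 to 42.2) of all Pdgfa UMIs, while smooth muscle-like cells held 4.12% (3.64 to 4.65). Monocyte/macrophage-like cells held 17.9% and microglia-like cells 16.5%. Oligodendrocyte-like cells held 45.2% (43.6 to 46.9) of the Pdgfa UMIs with HDAC3 inhibitor and 34.7% (32.9 to 36.6) with vehicle. Such shares move with the number of cells caught, here 394 of 2954 and 208 of 2164 cells. Summed UMIs of a whole library alone do not separate the number of cells of a class from the RNA per cell. By class, oligodendrocyte-like cells were 13.3% of cells with HDAC3 inhibitor and 9.61% with vehicle. Their median depths were 10920 and 14834.5 UMIs per cell.

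Within the oligodendrocyte lineage, the level of Pdgfa over both libraries differed between clusters. The oligodendrocyte-like clusters were not ordered by stage. Among progenitor-like cells, the cluster that scored as committed precursors, with Gpr17 and Enpp6 among its leading genes, had 158 CPM and the cluster that scored as early progenitors 70.7 CPM, a ratio of 2.24 (1.45 to 3.56). The ratio was 1.59 (0.735 to 3.66) with HDAC3 inhibitor, an interval that held 1, and 2.62 (1.52 to 4.76) with vehicle. The committed cells had a median of 16174 UMIs with HDAC3 inhibitor and 2346 with vehicle, and the part of depth was not tested. Among oligodendrocyte-like cells, the second largest cluster, with the protease gene Klk6 near its top, had 536 CPM and the largest cluster 199 CPM, a ratio of 2.70 (2.49 to 2.92). That difference was of like size in the libraries, at 2.71 with HDAC3 inhibitor and 2.63 with vehicle. The smallest cluster, 35 cells with Klk6 as its first gene, had 268 CPM (190.5 to 366). The second largest cluster also had more UMIs per cell than the largest, with a median of 19633 against 11536, and the part of depth in this difference was not tested.

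Pdgfb, the B chain (ENSMUSG00000000489, chr15:79995874-80014977, minus strand), came from endothelial-like and microglia-like cells. Endothelial-like cells had 191 CPM (179 to 204) with HDAC3 inhibitor and 256 CPM (239.8 to 273) with vehicle. Microglia-like cells had 208 CPM (196 to 221) with HDAC3 inhibitor and 187 CPM (177 to 198) with vehicle. The order of these classes turned between the libraries, since microglia-like over endothelial-like was 1.09 (0.996 to 1.19) with HDAC3 inhibitor, an interval that held 1, and 0.732 (0.672 to 0.797) with vehicle. Smooth muscle-like cells had 44.1 CPM and border-associated macrophage-like cells 38.0 CPM over both libraries, a step within counting error. Microglia-like cells held 47.4% of Pdgfb UMIs and endothelial-like cells 37.1%. Unnamed clusters held 12.1%, 16.2% with HDAC3 inhibitor and 7.998% with vehicle.

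Microglia-like and monocyte/macrophage-like cells stood far apart in Pdgfb. Monocyte/macrophage-like cells had 2.18 CPM (1.59 to 2.90), and the microglia-like level was 90.3 (67.5 to 124) times as high, although the monocyte/macrophage-like cells were deeper, with a median of 23238 against 11263 UMIs per cell. At 2000 UMIs per cell, 31% of microglia-like and 0.342% of monocyte/macrophage-like cells had a UMI of Pdgfb, and none of 342 neutrophil-like cells. Pdgfa had 85.0 and 51.8 CPM in the same classes, a much smaller step. Within microglia-like cells, the larger cluster, with the cytokine genes Ccl4, Ccl3 and Il1a among its leading genes, had 237 CPM of Pdgfb and the smaller, with Spp1, Igf1 and Apoc1, had 58.3 CPM. That ratio was 4.05 (3.21 to 5.17) with HDAC3 inhibitor and 4.10 (3.26 to 5.20) with vehicle. The larger cluster had a median of 11638 UMIs per cell and the smaller 5749, and the part of depth was not tested.

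Most UMIs of Pdgfd, the D chain (ENSMUSG00000032006, chr9:6168584-6378850, plus strand), lay in endothelial-like cells. Such a share moves with the number of cells caught, here 731 endothelial-like, 65 smooth muscle-like and 45 astrocyte-like cells. Endothelial-like cells had 45.4 CPM (39.5 to 52.0) with HDAC3 inhibitor and 51.9 CPM (44.9 to 59.7) with vehicle. They held 73.1% of Pdgfd UMIs, with 16.9% in unnamed clusters. Smooth muscle-like cells had 39.0 CPM from 23 UMIs and astrocyte-like cells 36.6 CPM from 10 UMIs, and neither step in this order exceeded counting error. A UMI of Pdgfd was found in 37.3% of endothelial-like cells, or 9.54% at 2000 UMIs per cell, and in none of 369 neutrophil-like cells, for which 3 cells would be 0.813%. Pericyte-like cells had 1 UMI of Pdgfd in 158 cells.

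Along the vessel wall the ligands were arranged differently. In arterial-like endothelial cells Pdgfd had 83.5 CPM, against 46.8 CPM in endothelial-like cells of no named subtype, a ratio of 1.78 (1.43 to 2.22), and 26.5 CPM in venous-like cells, a ratio of 3.15 (2.28 to 4.40). The largest of the 4 subclusters of no named subtype, 151 of 454 cells, was led by Rgs5, Myl9 and Vtn, of which Rgs5 and Vtn are on the pericyte list. It had 36.8 CPM of Pdgfd, and the other 3 had 46.5 to 53.0 CPM. Pdgfa was also higher in arterial-like cells, at 119 CPM against 18.9 CPM in cells of no named subtype, a ratio of 6.28 (4.81 to 8.28). Those 4 subclusters had 12.1 to 54.8 CPM of Pdgfa. Pdgfb differed less, with 265 CPM in tip-like cells, which lead new sprouts, 252 CPM in arterial-like, 230.2 CPM in unnamed and 157 CPM in venous-like cells. Tip-like over venous-like cells was 1.69 (1.38 to 2.05), and arterial-like over unnamed cells 1.09 (0.976 to 1.23). On the mural side, smooth muscle-like cells were above pericyte-like cells in each of these ligands, 2.73 (2.20 to 3.40) times for Pdgfa and 5.27 (2.23 to 14.4) times for Pdgfb over both libraries, and with 23 UMIs against 1 for Pdgfd. For Pdgfb the ratio was 2.92 (0.909 to 10.9) with HDAC3 inhibitor, an interval that held 1, and 10.96 (2.58 to 98.3) with vehicle, from 5 and 2 UMIs in pericyte-like cells.

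**Figure D2:**
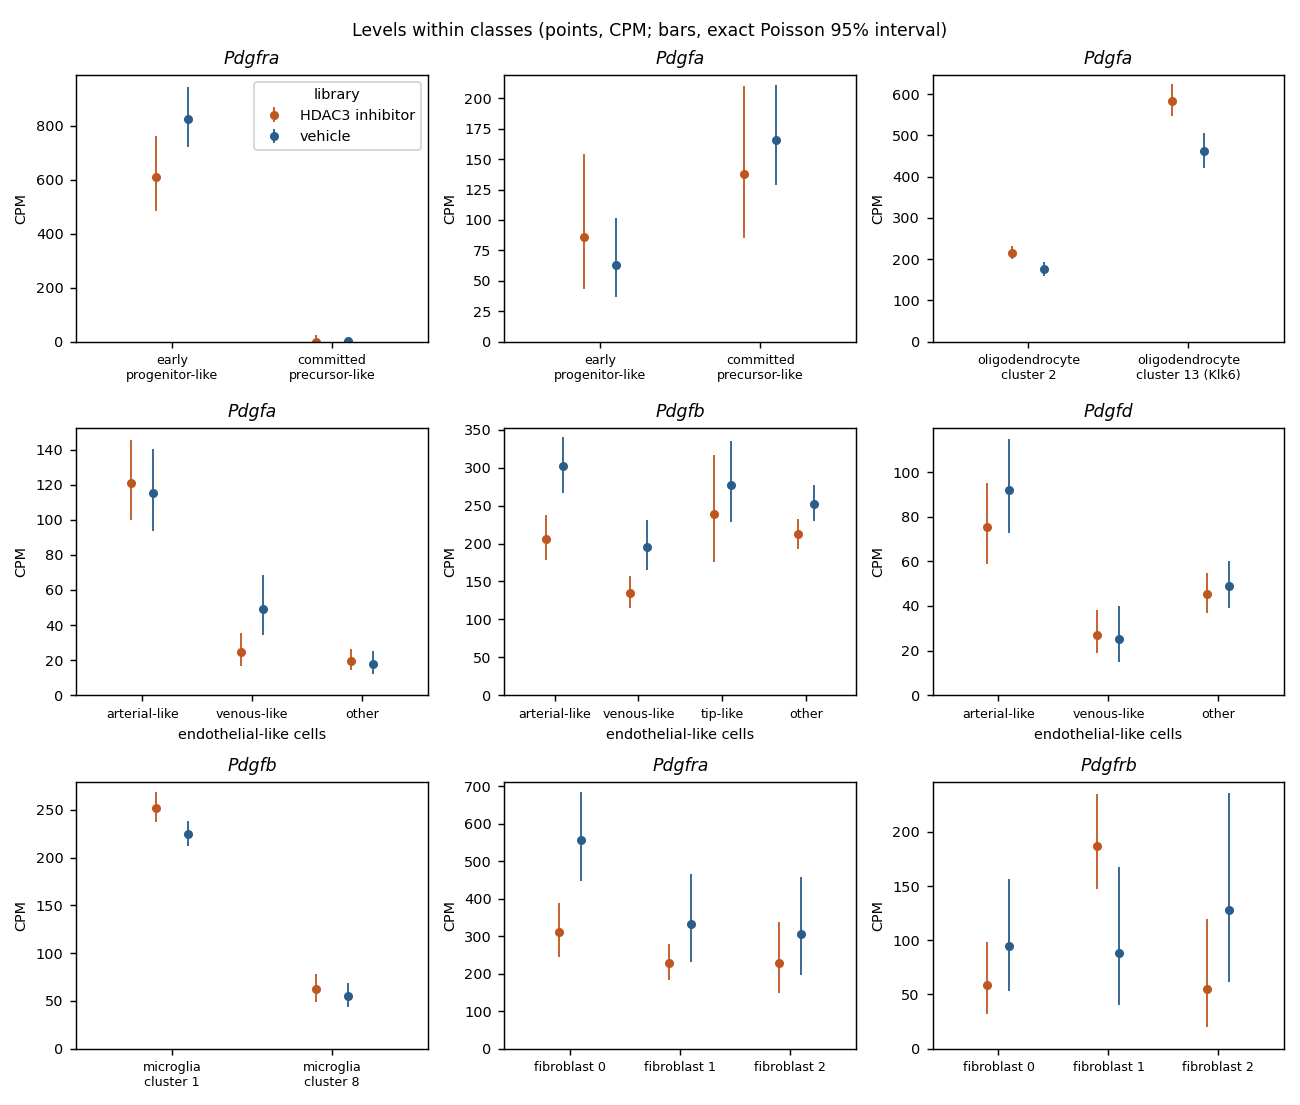
Levels of PDGF genes (y axis, CPM, from 0) in clusters and subtypes within cell classes (x axis), with 1 point per library and exact Poisson 95% intervals as bars. Pdgfra is at 611 and 827 CPM in early progenitor-like cells and near 0 in committed precursor-like cells, and Pdgfa and Pdgfd are high in arterial-like endothelium.

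Pdgfc, the C chain (ENSMUSG00000028019, chr3:81036416-81214040, plus strand), was sparse in every class. It had 22.0 CPM (8.06 to 47.8) in astrocyte-like cells from 6 UMIs, 20.4 CPM (10.5 to 35.5) in smooth muscle-like cells from 12 UMIs and 12.0 CPM (6.40 to 20.6) in fibroblast-like cells from 13 UMIs. No neighbours among the 6 highest classes differed beyond counting error. Oligodendrocyte-like cells, at 5.78 CPM, held the most UMIs, 48, and neutrophil-like cells held none. A leading source of Pdgfc could not be picked out at this depth.

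Among the receptors, Pdgfra, the alpha receptor (ENSMUSG00000029231, chr5:75152292-75198215, plus strand), was carried by oligodendrocyte progenitor-like and fibroblast-like cells. Progenitor-like cells had 278 CPM (220.0 to 347) with HDAC3 inhibitor and 332 CPM (289.8 to 378) with vehicle. Fibroblast-like cells had 254 CPM (219 to 293) with HDAC3 inhibitor and 432 CPM (364 to 507) with vehicle. Over both libraries the progenitor-like level was 1.02 (0.870 to 1.20) times the fibroblast-like one, and the order turned between the libraries. In each library the intervals of these classes overlapped. The next class, pericyte-like cells, had 3.59 CPM, from 3 UMIs that all lay in 1 vehicle cell, and microglia-like cells had none in 942 cells, for which 3 counts would be 0.252 CPM.

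The progenitor class was not uniform in Pdgfra. The early cluster had 758 CPM over both libraries, from 300 UMIs, and the committed cluster 1.80 CPM, from 1 UMI. After 5 neuron-marker cells were set aside, each of the 31 early cells had at least 1 UMI of Pdgfra, and 77.4% had one at 2000 UMIs per cell. With those 5 cells it was 32 of 36 (88.9%), and 12 of 16 with HDAC3 inhibitor. Early cells had a median of 7 UMIs of Pdgfra per cell with HDAC3 inhibitor and 9.50 with vehicle. The level in the early cluster was 2.40 (1.82 to 3.14) times that of fibroblast-like cells with HDAC3 inhibitor and 1.92 (1.55 to 2.38) times with vehicle. Over both libraries together, Pdgfra and Pdgfa thus ran in opposite directions between the progenitor clusters. With HDAC3 inhibitor alone, the interval of the Pdgfa ratio held 1.

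Pdgfrb, the beta receptor (ENSMUSG00000024620, chr18:61045150-61085061, plus strand), was highest in mural cells. Pericyte-like cells had 1268 CPM (1168 to 1375) with HDAC3 inhibitor and 1401 CPM (1283 to 1527) with vehicle. Smooth muscle-like cells had 284 CPM (228 to 348) with HDAC3 inhibitor and 290.2 CPM (229 to 362) with vehicle. Pericyte-like cells were above smooth muscle-like cells 4.47 (3.58 to 5.64) times with HDAC3 inhibitor and 4.83 (3.80 to 6.21) times with vehicle, and fibroblast-like cells, at 127 and 100.5 CPM, were below both in each library. Schwann-like cells had 23.2 CPM (15.6 to 33.1) over both libraries, and all 30 of these UMIs lay in the larger of their clusters. A UMI was found in 4.13% of Schwann-like cells and none of 900 microglia-like cells at 2000 UMIs per cell.

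The receptors were separate in most cells and met in fibroblast-like cells. Pdgfrb without Pdgfra was found in 96.8% (92.8 to 99.0) of 158 pericyte-like cells and 90.8% (81.0 to 96.5) of 65 smooth muscle-like cells. No progenitor-like cell of 71 had a UMI of Pdgfrb, for which 3 cells would be 4.23%. Of 85 fibroblast-like cells, 38 had both receptors (44.7%, 33.9 to 55.9), 32 Pdgfra alone, 3 Pdgfrb alone and 12 neither. Both were found in 41.4% (28.6 to 55.1) of them with HDAC3 inhibitor and 51.9% (31.9 to 71.3) with vehicle. At 2000 UMIs per cell the share with both was 7.23% (2.70 to 15.1), so it depends on depth. Pericyte markers in fibroblast-like cells summed to 693 CPM with HDAC3 inhibitor (6 of 8 detected) and 494 CPM with vehicle (5 of 8). Their part in the share with both receptors was not tested.

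**Figure D3:**
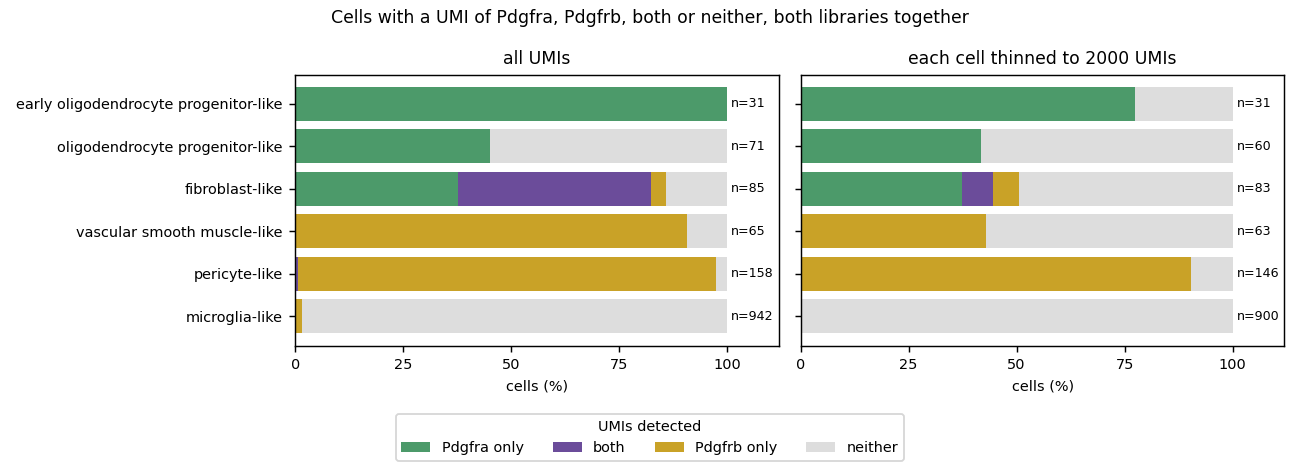
Share of cells (x axis, %) in each set of cells (y axis) with a UMI of Pdgfra alone, of both receptors, of Pdgfrb alone or of neither, with both libraries together, at full depth and with each cell thinned to 2000 UMIs. Cells with both receptors are seen in fibroblast-like cells, 44.7% at full depth and 7.23% when thinned.

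Between the libraries, most ratios of the PDGF genes lay within counting error of 1. Of 26 pairs of a gene and a class with at least 20 UMIs, 19 ratios had intervals that held 1, 4 lay above 1 and 3 below. Of the 19 pairs with at least 50 UMIs, 2 were past 1.5-fold and 7 had intervals without 1. Over all genes with at least 50 UMIs in the same 11 classes, 7.77% of pairs were past 1.5-fold and 15.6% had intervals without 1. Those genes were not matched to the PDGF genes for UMIs, and intervals are narrower at higher counts. Both counts of the PDGF genes are larger shares of their pairs than those over all genes. Without matching for UMIs, this comparison cannot show whether the PDGF genes differ from other genes. The intervals hold no spread between animals.

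Pdgfra in fibroblast-like cells was lower in the HDAC3 inhibitor library. Its 189 UMIs in 58 cells with HDAC3 inhibitor and 146 UMIs in 27 cells with vehicle gave a ratio of 0.590 (0.473 to 0.737). In this class 17.2% of all genes were past 1.5-fold and 18.4% had intervals without 1. The median cell had 202 CPM with HDAC3 inhibitor and 374 CPM with vehicle, and single cells of the libraries overlapped from 0 to 16 UMIs. The ratio was below 1 in each of 3 subclusters, at 0.558 (0.404 to 0.769), 0.684 (0.456 to 1.05) and 0.747 (0.409 to 1.37). Pdgfrb had a ratio of 1.26 (0.843 to 1.92), and its log2 ratio ran from -0.45 to 0.38 over the other settings tried. The subcluster with Acta2 and Tagln, genes of contractile cells, among its leading genes held 23 and 5 cells of the libraries. It had 2.28 (1.48 to 3.61) times the Pdgfrb and 0.610 (0.479 to 0.775) times the Pdgfra of the subcluster with Dlk1. With vehicle alone the Pdgfrb ratio was 0.928 (0.358 to 2.26). The Pdgfra ratio was 0.733 (0.533 to 1.01) with HDAC3 inhibitor, an interval that held 1, and 0.598 (0.390 to 0.897) with vehicle. Smooth muscle markers in fibroblast-like cells summed to 828 CPM with HDAC3 inhibitor (7 of 10 detected) and 245 CPM with vehicle (5 of 10). Fibroblast markers summed to 28407 CPM with HDAC3 inhibitor (12 of 12 detected) and 30986 CPM with vehicle (12 of 12), and the part of these differences in the Pdgfra ratio was not tested.

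In progenitor-like cells the Pdgfra ratio was 0.839 (0.639 to 1.09), an interval that held 1. In the early cluster alone it was 0.739 (0.564 to 0.961), from 78 UMIs in 11 cells with HDAC3 inhibitor and 222 UMIs in 20 cells with vehicle. In these cells 15.2% of all genes were past 1.5-fold, which Pdgfra was not, and 13.7% had intervals without 1. Another 5 cells of the HDAC3 inhibitor library fell in this cluster with 511 UMIs of neuron markers and 8 of progenitor markers, and were set aside by a rule made after they were seen. With them the ratio was 0.719 (0.549 to 0.934) in the class and 0.536 (0.409 to 0.696) in the early cluster, past 1.5-fold. Cell cycle markers in early cells summed to 31.4 CPM with HDAC3 inhibitor (2 of 6 detected) and 663 CPM with vehicle (6 of 6). Progenitor markers summed to 9768 CPM with HDAC3 inhibitor (12 of 12 detected) and 11518 CPM with vehicle (12 of 12), and the part of either list in the Pdgfra ratio was not tested.

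Pdgfb went in opposite directions in its main sources. In endothelial-like cells its ratio was 0.747 (0.681 to 0.820), and in microglia-like cells 1.11 (1.02 to 1.21). Intervals without 1 were found for 14.4% of all genes in endothelial-like cells and 17.6% in microglia-like cells. The endothelial ratio was 0.683 (0.564 to 0.826) in arterial-like cells, 0.689 (0.547 to 0.869) in venous-like cells and 0.841 (0.737 to 0.959) in cells of no named subtype. In the 31 tip-like cells it was 0.859 (0.597 to 1.22), an interval that held 1. Without any filter on cells the log2 ratio in endothelial-like cells was -0.16 in place of -0.42. Pericyte markers in endothelial-like cells summed to 320.1 CPM with HDAC3 inhibitor (8 of 8 detected) and 113 CPM with vehicle (8 of 8). Erythroid markers summed to 2355 CPM with HDAC3 inhibitor (6 of 7 detected) and 1288 CPM with vehicle (6 of 7), and the part of either list in the Pdgfb ratio was not tested. In microglia-like cells erythroid markers summed to 25.6 CPM with HDAC3 inhibitor (5 of 7 detected) and 338 CPM with vehicle (5 of 7). Monocyte/macrophage markers there summed to 2787 CPM with HDAC3 inhibitor (11 of 12 detected) and 3469 CPM with vehicle (11 of 12), and their part in the microglia-like ratios of Pdgfb and Pdgfa was not tested. Pdgfd in endothelial-like cells had a ratio of 0.875 (0.716 to 1.07).

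Pdgfa had intervals above 1 in 3 classes and below 1 in 1 class. In Schwann-like cells its ratio was 1.60 (1.22 to 2.10), from 221 CPM (183 to 264) with HDAC3 inhibitor and 138 CPM (113 to 168) with vehicle. In that class 10.1% of all genes were past 1.5-fold and 14.3% had intervals without 1. At 2000 UMIs per cell the log2 ratio in Schwann-like cells was 0.20 in place of 0.67, under 1.5-fold. Beside these, the ratio was 1.27 (1.17 to 1.38) in oligodendrocyte-like cells, 1.19 (1.05 to 1.35) in monocyte/macrophage-like cells and 0.847 (0.746 to 0.962) in microglia-like cells. Over the other settings tried, the log2 ratio in oligodendrocyte-like cells ran from 0.18 to 0.35, against 0.34 in the main setting. Intervals without 1 were found for 12.7% of all genes in oligodendrocyte-like and 22.3% in monocyte/macrophage-like cells. The oligodendrocyte ratio was 1.23 (1.08 to 1.39) in the largest cluster and 1.26 (1.13 to 1.42) in the second largest. Schwann markers in Schwann-like cells summed to 35473 CPM with HDAC3 inhibitor (9 of 9 detected) and 43785 CPM with vehicle (9 of 9). Erythroid markers there summed to 27.6 CPM with HDAC3 inhibitor (4 of 7 detected) and 969 CPM with vehicle (5 of 7), and the part of either list in the Pdgfa ratio was not tested. In monocyte/macrophage-like cells erythroid markers summed to 90.7 CPM with HDAC3 inhibitor (5 of 7 detected) and 20.7 CPM with vehicle (4 of 7). In oligodendrocyte-like cells monocyte/macrophage markers summed to 3872 CPM with HDAC3 inhibitor (11 of 12 detected) and 3381 CPM with vehicle (9 of 12), and the part of these was not tested either.

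Pdgfrb had no interval without 1 in any class compared. Its ratio was 0.905 (0.803 to 1.02) in pericyte-like cells, 0.977 (0.714 to 1.34) in smooth muscle-like cells and 1.06 (0.472 to 2.31) in Schwann-like cells. Neutrophil markers in pericyte-like cells summed to 181 CPM with HDAC3 inhibitor (6 of 10 detected) and 1428 CPM with vehicle (8 of 10). Fibroblast markers there summed to 508 CPM with HDAC3 inhibitor (6 of 12 detected) and 1768 CPM with vehicle (10 of 12), and their part was not tested.

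**Figure D4:**
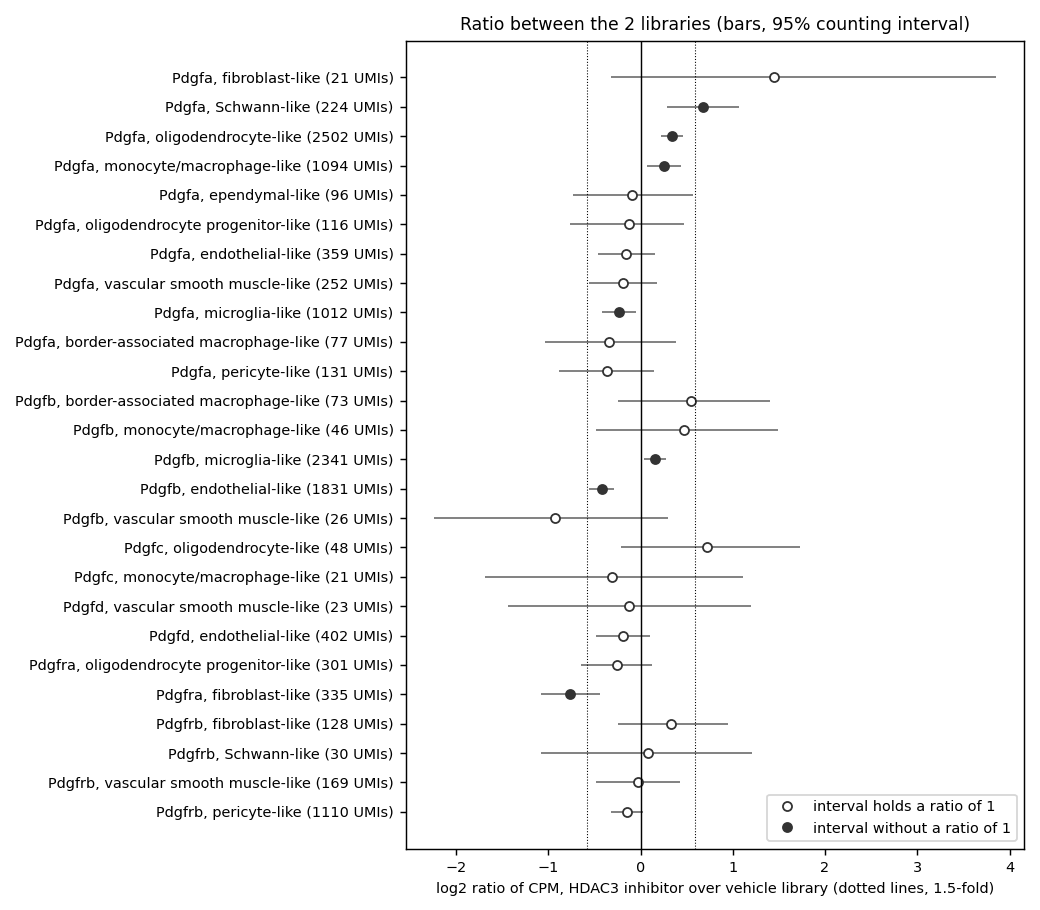
Log2 ratio of CPM (x axis, HDAC3 inhibitor over vehicle, dotted lines at 1.5-fold) for the 26 pairs of a PDGF gene and a cell class with at least 20 UMIs (y axis), with 95% counting intervals as bars. Most intervals hold a ratio of 1, and 7 do not, Pdgfra in fibroblast-like cells among those below 1.

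The amount of receptor transcript in a whole library also depends on how many cells of each class were caught. Over all kept cells, Pdgfra had 7.25 CPM with HDAC3 inhibitor and 13.2 CPM with vehicle, a ratio of 0.550 (0.470 to 0.645). Progenitor-like cells were 0.711% of the cells with HDAC3 inhibitor (21 cells) and 2.31% with vehicle (50 cells), and fibroblast-like cells 1.96% and 1.25%. Fibroblast-like cells held 69.0% (63.1 to 74.4) of Pdgfra UMIs with HDAC3 inhibitor and 38.2% (33.3 to 43.3) with vehicle. Pdgfrb over all kept cells was at a ratio of 1.04 (0.942 to 1.15).

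The RefSeq table of sequences upstream of gene starts (GRCm38.p6) held 4 of the 6 genes, and 3 are shown, from the gene found in most classes and from genes found in few. Capitals mark each CG pair, the site of vertebrate DNA methylation. The Pdgfa sequence (chr5:138995038-138995194, minus strand) is the 157 bases outside annotated exons of 1 of its 2 windows. Both windows lie inside the Pdgfa gene as GENCODE annotates it and not at its outermost start, and the other, mostly exon, is not shown. The Pdgfd (chr9:6168236-6168485, plus strand) and Pdgfra (chr5:75152001-75152250, plus strand) sequences are the 250 bases before the RefSeq start.
Pdgfa: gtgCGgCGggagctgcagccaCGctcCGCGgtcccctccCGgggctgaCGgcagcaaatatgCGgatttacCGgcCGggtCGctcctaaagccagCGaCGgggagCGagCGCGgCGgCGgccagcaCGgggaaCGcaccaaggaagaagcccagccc
Pdgfd: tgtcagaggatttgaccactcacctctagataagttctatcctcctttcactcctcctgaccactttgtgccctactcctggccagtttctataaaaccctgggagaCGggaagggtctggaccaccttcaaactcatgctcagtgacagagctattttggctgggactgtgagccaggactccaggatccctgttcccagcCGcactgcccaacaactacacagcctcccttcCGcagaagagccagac
Pdgfra: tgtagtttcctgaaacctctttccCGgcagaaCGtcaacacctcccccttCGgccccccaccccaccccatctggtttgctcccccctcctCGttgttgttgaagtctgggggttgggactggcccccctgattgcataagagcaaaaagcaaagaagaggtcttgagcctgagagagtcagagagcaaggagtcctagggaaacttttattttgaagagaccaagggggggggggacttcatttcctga
The Pdgfa sequence has 20 CG pairs, 0.986 of the number its C and G content would give, and 72.0% G and C. The Pdgfd sequence has 3 pairs, at 0.176, and the Pdgfra sequence 4 pairs, at 0.216. Among the 32851 windows of the table, 6.20% had a value at least as high as Pdgfa, 73.7% as Pdgfd and 67.9% as Pdgfra, over windows of the same length. UMIs from the 3' end of a transcript do not show which start a cell used, so these are descriptions of the sequences shown and not of the starts in use.

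Other genes of the pathway were read in progenitor-like and pericyte-like cells, and in fibroblast-like cells. Of 10 genes for ligand processing and binding, 2 were measured, with at least 50 UMIs, in progenitor-like cells and 4 in pericyte-like cells, and none was past 1.5-fold. Of 19 genes for signalling below the receptors, 9 were measured in progenitor-like cells with none past 1.5-fold, and 8 in pericyte-like cells with 1 higher and 1 lower. In progenitor-like cells 12.7% of all genes were past 1.5-fold, and in pericyte-like cells 12.7%. The median log2 ratio of the signalling genes was 0.055 in progenitor-like cells, against 0.033 over all genes, and 0.33 in pericyte-like cells, against -0.0058. That of processing and binding genes was 0.055 and -0.30. In pericyte-like cells, Fyn, a Src family kinase, had 126 CPM with HDAC3 inhibitor and 73.3 CPM with vehicle, a ratio of 1.72 (1.07 to 2.82). Shc1, an adaptor protein, had 51.2 and 89.6 CPM there, a ratio of 0.572 (0.323 to 0.997).

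The signalling genes of highest CPM in progenitor-like cells were Fyn (1701 CPM) and Pik3r1, a regulatory subunit of phosphoinositide kinase (187 CPM). In pericyte-like cells they were Pik3r1 (178 CPM) and the docking protein Gab1 (119.5 CPM). For processing and binding, Sparc, a matrix protein that binds PDGF, led with 475 CPM in progenitor-like and 1904 CPM in pericyte-like cells. It was followed by the endocytic receptor Lrp1 (329.8 CPM) in progenitor-like cells, and by Plat, tissue plasminogen activator, which can cut latent PDGF-C (486 CPM), in pericyte-like cells.

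In fibroblast-like cells, 5 processing and binding genes were measured with none past 1.5-fold, and 5 signalling genes with 1 higher and 1 lower, where 17.2% of all genes were past 1.5-fold. The median log2 ratios were -0.14 and 0.17, against 0.074 over all genes. The higher gene was Ptpn11, a phosphatase, at a ratio of 2.08 (0.994 to 4.86), an interval that held 1, and the lower was the adaptor Crk, at 0.528 (0.299 to 0.941). Both were named after their values were seen.

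Genes whose levels over the 15 classes were most like each PDGF gene are given as a description, by Pearson r of log2(CPM + 1) over the same pooled cells among 11948 genes. Pdgfra was closest to 2810433D01Rik (0.964), Moxd1 (0.961) and H19 (0.943), and Pdgfrb to Pla2r1 (0.939), Foxs1 (0.934) and Kirrel (0.927). Pdgfa was closest to Slc25a26 (0.958), Prmt2 (0.895) and Gamt (0.884), and Pdgfb to Phf11d (0.879), Cxcl10 (0.867) and Cracr2b (0.854). Pdgfd was closest to Wfdc1 (0.931), 2200002D01Rik (0.920) and Mcc (0.895), and Pdgfc to Hcfc1r1 (0.942), Cd59b (0.907) and Fxyd1 (0.891). The 15 points share the same 2 libraries, and several are classes of few cells.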

How the data were processed

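Transcripts were counted in 2 libraries of single cells made with the 10x Genomics 3' version 3 kit, per the labels' protocols. The deposited matrices hold UMI counts per gene and barcode, not normalized, made with Cell Ranger on mm10 per the submitters' processing notes. Settings of that step are not given in the sources used here. The libraries held 3423 and 2523 barcodes with 38957752 and 29726813 UMIs. Barcodes under 500 genes or 1000 UMIs, or over 15% mitochondrial UMIs, were dropped. Scrublet in scanpy 1.11.5 marked 21 and 6 barcodes as doublets, a low share, so doublets may remain. Cells were clustered (2000 variable genes without the 6 members, 30 components, Leiden resolution 1) into 26 clusters, named by marker lists. Clusters 12 (erythroid and endothelial markers) and 14 (neutrophil and macrophage markers) and 5 neuron-marker cells stayed unnamed, by rules set after clusters were seen. Members and lists were chosen with earlier results of these data known. UMIs were summed per class as CPM. The intervals were run on simulated Poisson counts, which checks the calculation only. Those counts hold no spread between cells or animals, so they cannot show how well the intervals cover real cells. The genes named are the 6 members, the 3 genes most like each, and pathway genes called or among the highest 2 of their list in the leading receptor classes, plus genes that lead a cluster. Genes on the opposite strand overlap all members but Pdgfrb, and the sources used here do not say whether counting used strand.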

Additional observations from a re-analysis of the deposited data

Results flagged for a closer look

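Pdgfb had log2 ratios of -0.42 in endothelial-like and 0.15 in microglia-like cells, each with a counting interval on its own side of 0, and the difference between the classes was not tested. Pdgfa had log2 ratios of 0.67 in Schwann-like, 0.34 in oligodendrocyte-like and 0.25 in monocyte/macrophage-like cells and of -0.24 in microglia-like cells, and that difference was not tested. In the unnamed cluster with erythroid and endothelial markers (100 cells with HDAC3 inhibitor, 45 with vehicle), Pdgfrb had 51.2 and 20.9 CPM, a log2 ratio of 1.29, and Pdgfa 46.3 and 25.1 CPM, a log2 ratio of 0.88. In the unnamed cluster with neutrophil and macrophage markers (54 and 43 cells), Pdgfa had 54.4 and 31.8 CPM, a log2 ratio of 0.77.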

How the results depend on the processing

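Ratios between libraries and between classes were recomputed under other settings. Of 144 values for leading classes, 133 stayed within the main counting interval, 11 left it and no called direction turned. All use the same 2 libraries, and a direction was called only where the main interval held no ratio of 1. Uncalled signs did turn. Between classes this was in 6 of 14 settings for Pdgfra, 4 of 10 for Pdgfc and 1 of 12 for Pdgfd. Between libraries it was in 2 of 14 for Pdgfra in progenitor-like cells. Of 250 values for the other classes, 240 stayed within the main counting interval and 10 left it. For Pdgfb in endothelial-like cells the log2 ratio was -0.16 with no cell filter. For Pdgfra in progenitor-like cells it was 0.21 with each cell weighted alike. Pdgfra in fibroblast-like cells ranged from -1.09 to -0.68. Between classes, the log2 ratio of smooth muscle-like over oligodendrocyte-like cells for Pdgfa was 0.72 with each cell weighted alike and 1.04 thinned to 2000 UMIs. Endothelial-like over microglia-like cells for Pdgfb was 0.33 with no cell filter, 0.31 with cells classed one by one by marker, 0.0024 when thinned and 0.065 with the mixed erythroid and endothelial cluster joined to the class, a setting chosen after seeing the data. Endothelial-like over smooth muscle-like cells for Pdgfd was 1.67 when thinned. Progenitor-like over fibroblast-like cells for Pdgfra was -0.39 with each cell weighted alike and 1.29 with the early cluster alone, also chosen after seeing the data. The cause of these moves was not tested. Smooth muscle-like cells were no class of their own at Leiden resolution 0.5, so those values could not be computed. No paired analysis was possible because each group is 1 library. Depth limits Pdgfc most, with 158 UMIs in all, and the classes of few cells.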
